A study of Mus musculus with 16 samples.

Results

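Border-associated macrophages of the mouse hippocampus were examined here as 305 single nuclei among 118205 nuclei that passed the limits on gene number and mitochondrial RNA. The nuclei were chosen by measured values: each had UMIs (unique molecular identifiers, the molecules counted) of at least 2 of the 5 genes F13a1, Mrc1, Cd163, Lyve1 and Ms4a7, none of the microglial gene Siglech, and UMIs of at most 1 of the 4 genes Mog, Pdgfra, Slc17a7 and Gad2, which mark oligodendrocytes, their precursors and neurons. All 16 libraries were single-nucleus RNA-seq of hippocampi from male mice, in 4 groups of 4. WT mice (C57BL/6, labelled with an age of 2 months, 23 days) and mice labelled IFNARKO (Ifnar1-/-, lacking a chain of the type I interferon receptor; 3 months, 3 days) received vehicle or DMXAA, a small molecule that activates mouse STING. The deletion is present in every cell of the IFNARKO (KO) mice, and the KO animals were the older ones in both treatments, so that genotype and age cannot be told apart in any comparison of KO with WT.

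Border-associated macrophages live in the meninges, the perivascular spaces and the choroid plexus, and are known for scavenger receptors and for clearing material at the fluid borders of the brain. Microglia are the macrophages of the parenchyma, and both cell types depend on signals through Csf1r. Type I interferon binds the receptor made of Ifnar1 and Ifnar2, which signals to the nucleus and turns on antiviral genes through a DNA element of the form GAAANNGAAA. DMXAA acts upstream of this, on the STING branch that responds to cGAS and cytosolic DNA and leads to interferon production.

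The 305 nuclei were spread evenly over the groups, with 80 in WT vehicle, 75 in WT DMXAA, 74 in KO vehicle and 76 in KO DMXAA. A library held between 13 and 28 of them, and 36336 to 83476 of their UMIs, so that 1 UMI in a library was worth between 11.98 and 27.5 CPM (the usual scaling of counts to a common total, taken over the UMIs of the summed nuclei). The median nucleus held 1696 to 3301 UMIs in a library. Of 390 nuclei with 2 or more of the 5 genes, 83 were left out for Siglech and 2 for markers of other cells. Among the members, 85 held 2 of the 5 genes, 100 held 3, 93 held 4 and 27 held all of them. F13a1 and Mrc1 carried most of the selection and were detected together in 276 nuclei, while Cd163 was detected in 181, Ms4a7 in 145 and Lyve1 in 71. A doublet caller marked 42 of the 305 members, and these were kept. They were 6 of 80 in WT vehicle, 10 of 75 in WT DMXAA, 11 of 74 in KO vehicle and 15 of 76 in KO DMXAA. Among all nuclei within the limits, the caller was set to mark a share by library size, which came to 6.19 to 9.50% of a library. No barcode was a member in 2 libraries, and 11 of the 305 members' barcodes also occurred in another library.

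Nuclei with exactly 2 of the 5 genes held 1158 CPM of Dab2, an endocytic adaptor, and 688 CPM of the scavenger receptor Stab1, against 16.2 and 2.79 CPM in the 2115 nuclei with only 1. The neuronal glutamate receptor subunit Grin2a went the other way, at 1735 CPM inside and 2912 CPM outside.

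The genes that the rule did not use gave the picture of border macrophages rather than of microglia, as a description of nuclei that were themselves selected on expression. Of 16 border macrophage markers outside the rule, all were detected, and together they made up 6789 CPM in the members, 954 CPM in 5207 microglia of the same libraries and 181 CPM in the remaining nuclei. Microglia were defined by 2 or more of Siglech, P2ry12, Tmem119, Sall1 and Gpr34 with none of the 5 rule genes. Dab2 stood at 2100 CPM in members and 17.0 CPM in microglia. Colec12, a collectin scavenger receptor, stood at 780 and 11.6 CPM, and Rbpj, the nuclear effector of Notch, at 3756 and 79.4 CPM. The chemokine gene Pf4 was at 102 CPM in members and at 0 in microglia, and the lectin genes Clec10a (133 CPM) and Cd209g (64.9 CPM) were likewise at 0 there. Ms4a4a reached 288 CPM against 0.0579 CPM, Lyz2 (lysozyme) 450 against 7.82 CPM, Msr1 (scavenger receptor A) 198 against 1.97 CPM and Apoe, the lipid carrier, 5809 against 323 CPM.

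**Figure D1:**
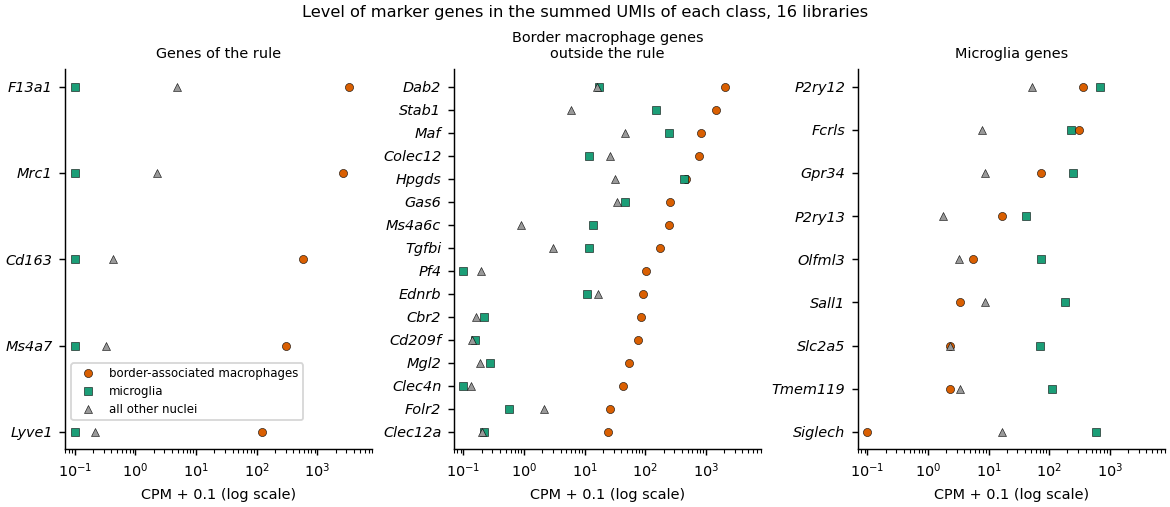
Level of marker genes in border-associated macrophages, microglia and all other nuclei, in CPM on a log axis with 0.1 added, for the 5 genes of the rule, for border macrophage genes outside the rule and for microglial genes. Dab2 stands at 2100 CPM in the macrophages and 17.0 CPM in microglia, while Tmem119 stands at 2.2 and 109 CPM. The microglia were selected without the rule genes, which puts those at 0, and with Tmem119, P2ry12 and Sall1 among others, which raises these.

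Genes of parenchymal microglia were lower in sum in the members than in microglia, but not absent. The 10 genes of this list summed to 911 CPM in members, 3330 CPM in microglia and 153 CPM in the remaining nuclei. A UMI of at least 1 of them was found in 81.6% of members, and Siglech was at 0 by the rule. The microglia were selected on P2ry12, Tmem119 and Sall1 among others, so that their own level of these genes is set by the selection. Tmem119 was at 2.2 CPM in members and 109 CPM in microglia, and Sall1, the transcription factor that marks microglial identity, at 3.3 and 181 CPM. P2ry12 was found in 49.2% of members at 362 CPM, compared with 682 CPM in microglia, and Fcrls in 49.8% at 309 CPM. Csf1r, shared by both cell types, had 558 CPM in members and 662 CPM in microglia, and Mef2c, the transcription factor on which the study centres, 1290 and 1131 CPM. Among markers of other leukocytes, 1 of 7 lymphocyte genes was detected at 1.1 CPM in sum, and 5 of 8 monocyte and neutrophil genes at 72.6 CPM in sum, compared with 6.37 CPM in microglia. Of 6 dendritic cell genes 4 were detected, at 130 CPM in sum and in 26.9% of members, compared with 30.7 CPM in microglia, while Ccr7 and Xcr1 were at 0.

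A minority of the members carried MHC class II genes, which present antigen to CD4+ T cells. UMIs of 2 or more of Cd74, H2-Aa, H2-Ab1 and H2-Eb1 were present in 54 of 305 members (17.7%) and in 4 of 5207 microglia (0.0768%). This class was formed after its values had been seen and is described without a test. Ciita, the master regulator of MHC class II, was detected in 46.3% of these 54 nuclei (95% Wilson interval 33.7 to 59.4%) and in 0.797% of the other 251 members (0.219 to 2.86%). Ccr2, the chemokine receptor of blood monocytes, was detected in 17 of the 54 (31.5%, 20.7 to 44.7%) and in 1 of the 251 (0.398%, 0.0704 to 2.22%). Lyve1 went the opposite way, in 5.56% against 27.1%, and 3 nuclei held both Lyve1 and the MHC class II genes. Colec12 was detected in 7.41% against 61.0%, Clec10a in 5.56% against 29.9%, and Timd4, a receptor for phosphatidylserine, in 1.85% against 11.95%. Apoe was found alike in both (96.3% against 96.4%). Detection of the rule genes, Lyve1 included, is shaped by the selection of the members. Mrc1 was detected in 98.1% against 96.8%, at 1788 against 2806 CPM. F13a1 was detected in 72.2% against 97.6%, Cd163 in 37.0% against 64.1% and Ms4a7 in 42.6% against 48.6%. Of the dendritic cell genes, Flt3 was seen in 3 of the 54 and 7 of the 251, and Itgax in 1 of the 54 and 0 of the 251, where a count of 0 allows a share of nuclei with a UMI of up to 1.20% from 3 counts (Wilson upper bound 1.51%). Cd209a of the same list went the other way, in 1 of the 54 (1.85%) and 14 of the 251 (5.58%). The median nucleus held 2036 UMIs in the MHC class II class and 2338 in the others.

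**Figure D2:**
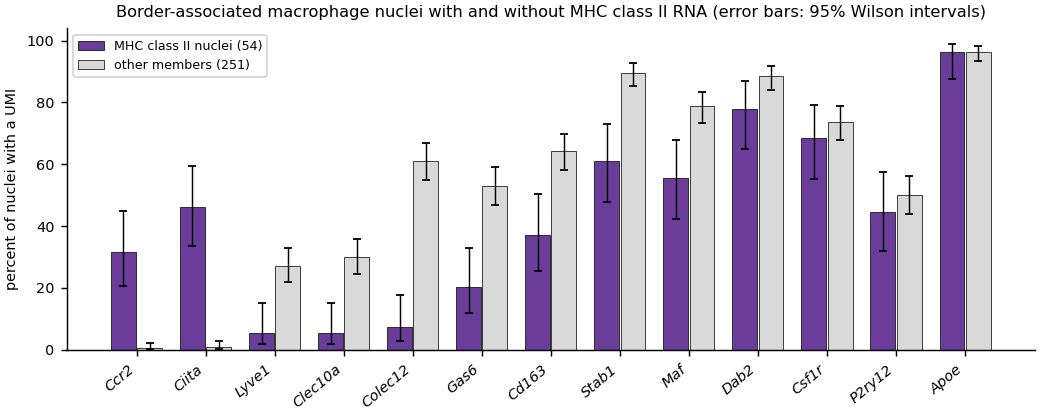
Share of nuclei with at least 1 UMI of each gene, in percent, among the 54 members with 2 or more MHC class II genes and the 251 other members, with 95% Wilson intervals that cover counting error only. Ccr2 was detected in 31.5% of the former and 0.398% of the latter, and Colec12 in 7.41% and 61.0%.

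The MHC class II nuclei made up 17.9%, 17.6%, 0% and 16.7% of the members in the 4 WT vehicle libraries and 20%, 11.8%, 8% and 11.1% in those of WT DMXAA. In KO mice they made up 7.69%, 17.6%, 19.0% and 30.4% after vehicle and 12.5%, 14.3%, 24% and 42.9% after DMXAA. All 4 groups overlapped, each share rested on at most 28 nuclei, and the library at 0% had 17 members, which allows a share of up to 17.6%. Cd74, the invariant chain of MHC class II, had 29, 12, 2 and 7 UMIs in WT vehicle and 15, 11, 31 and 46 in KO vehicle, which also overlapped.

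RNA of other cells was present in the members and moved with the groups. The summed level of 6 excitatory neuron genes was 1095, 397, 1927 and 743 CPM in WT vehicle and 297, 2625, 2360 and 3349 CPM in WT DMXAA. It was 9463, 2696, 5963 and 5388 CPM in KO vehicle and 2369, 5276, 5429 and 1001 CPM in KO DMXAA, so that each KO vehicle library lay above each WT vehicle library. All 6 of these genes were detected. The 5 oligodendrocyte genes summed to 217 to 358 CPM in WT vehicle, 630 to 1349 CPM in WT DMXAA, 438 to 745 CPM in KO vehicle and 288 to 1435 CPM in KO DMXAA. A few nuclei carried most of the choroid plexus RNA: 3 nuclei held 81.9% of the 824 UMIs of Htr2c, Ttr and Enpp2, and 1 nucleus of WT vehicle library 3 held 721 of the 862 UMIs of Ptgds. Because of this, levels are also given as CPM of macrophage gene UMIs alone, meaning the 5893 genes whose CPM in members was at least 2 times that in excitatory neurons. These genes made up 41.0 to 51.9% of the members' UMIs in WT vehicle, 34.4 to 51.5% in WT DMXAA, 22.5 to 39.5% in KO vehicle and 33.2 to 49.9% in KO DMXAA. This scale was added after the data had been seen. Its genes were chosen against excitatory neurons only, so that RNA of other cell types was not removed by it. Choroid plexus, endothelial and fibroblast genes remained in the set, as did most of the interferon genes described below.

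**Figure D3:**
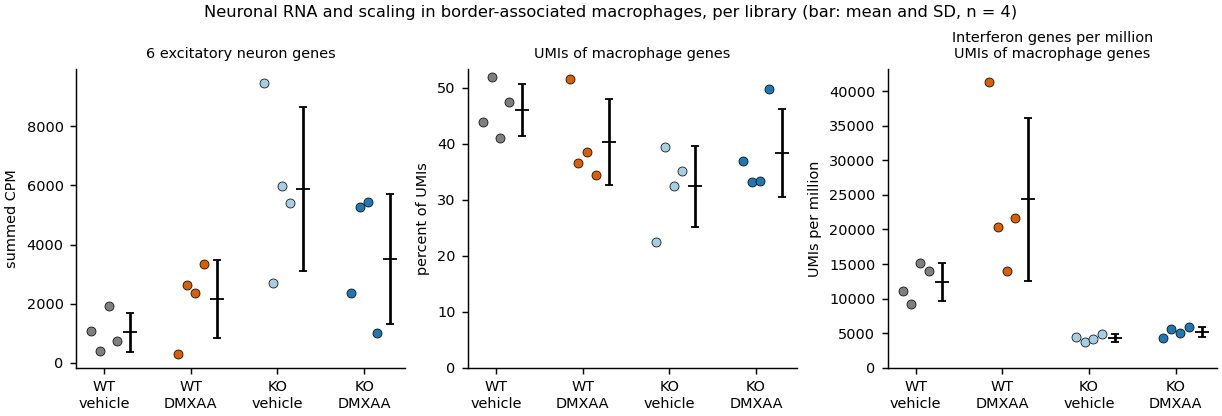
Per library, the summed CPM of 6 excitatory neuron genes in the members, the percent of the members' UMIs that came from macrophage genes, and the interferon genes as CPM of macrophage gene UMIs. The neuronal genes lie at 397 to 1927 CPM in WT vehicle and at 2696 to 9463 CPM in KO vehicle, and on the macrophage gene scale the interferon genes still lie lower in every KO vehicle library (3658 to 4892) than in every WT vehicle library (9283 to 15187).

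The share of border macrophages among all nuclei was close in vehicle and DMXAA libraries. It counts nuclei by detection of the 5 rule genes, so that a change in their RNA would also move it. Of these, 1 (Mrc1) lay lower in CPM in every WT DMXAA library than in every WT vehicle library, beside 2.17% of all genes. On the macrophage gene scale 0 of 5 did, beside 1.65%. It was 0.246 ± 0.0647% in WT vehicle and 0.227 ± 0.0295% in WT DMXAA (SD, n = 4), with a difference of -0.0187 percentage points and p = 0.8 in a two-sided exact permutation test, for which 4 libraries against 4 can give no p below 0.0286. In KO mice it was 0.282 ± 0.0442% and 0.284 ± 0.0615%, with a difference of 0.00219 and an exact permutation p = 0.971. Over these 2 comparisons the adjusted p was 0.971 for both. Per 1000 microglia, the libraries held 52.8 ± 12.96 border macrophages in WT vehicle, 50.8 ± 18.3 in WT DMXAA, 72.2 ± 10.6 in KO vehicle and 65.3 ± 10.9 in KO DMXAA (SD, n = 4).

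Ifnar1, the targeted gene (ENSMUSG00000022967, chr16:91485238-91507441 on mm10), had 7, 3, 7 and 7 UMIs in WT vehicle, 8, 6, 7 and 4 in WT DMXAA, 1, 7, 4 and 7 in KO vehicle and 6, 5, 5 and 7 in KO DMXAA. Its level was 118 ± 53.9 CPM in WT vehicle and 87.2 ± 64.4 CPM in KO vehicle (SD, n = 4), and the groups overlapped. The labels do not say which part of the gene is missing, and 3′ tags counted over exons and introns can come from parts that remain, so that these counts do not check the genotype.

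Interferon-responsive genes lay lower in the KO members than in the WT members after vehicle. A list of 86 such genes (interferon signalling and sensors, antiviral effectors, and interferon GTPases) was used, of which 84 were in the files, 81 were detected in the members, 45 had at least 20 UMIs and 29 had enough counts for the fit. In WT vehicle mice, which received no DMXAA, the members already held 4890, 4815, 6229 and 6633 CPM of these genes in sum. KO vehicle libraries held 1010, 1444, 1364 and 1723 CPM, which all lay below the lowest WT vehicle library, at 0.246 times the WT mean (0.348 times on the macrophage gene scale). Microglia of the same WT vehicle mice held 1153, 1302, 1383 and 1086 CPM, and KO vehicle microglia 936, 823, 856 and 889 CPM, or 0.712 times by mean. In these sums over nuclei, fewer nuclei with a transcript and fewer transcripts per nucleus cannot be told apart.

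The nuclei were thinned to 1000 UMIs each to compare shares at 1 depth, which left out 1 shallower member each in WT vehicle and WT DMXAA, 8 in KO vehicle and 4 in KO DMXAA. An interferon gene UMI was then present in 97.5% of members in WT vehicle, 98.6% in WT DMXAA, 71.2% in KO vehicle and 84.7% in KO DMXAA, over the nuclei of all libraries of a group. By library these shares ran from 94.1 to 100% in WT vehicle and from 94.4 to 100% in WT DMXAA. In KO they ran from 57.9 to 86.4% after vehicle, below both WT groups. After DMXAA they ran from 66.7 to 95.2% in KO, which overlapped the WT groups. The shares in microglia were 74.7, 88.2, 64.1 and 66.4% in the same order of groups. Excitatory neurons, which gave 24.4, 40.2, 22.1 and 21.6%, give the level of a cell type outside the macrophage lineage at this depth. Without thinning the shares were 100, 98.7, 89.2 and 96.1% in members and 80.6, 90.8, 82.3 and 82.3% in neurons, whose median nucleus held 7617 to 10647 UMIs in a library.

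**Figure D4:**
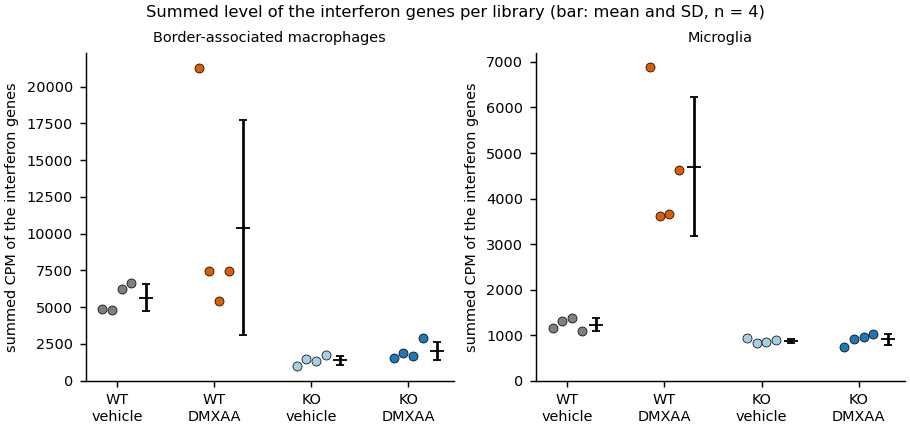
Summed CPM of the interferon genes per library in the members and in microglia, with the group mean and SD (n = 4). WT vehicle members lie at 4815 to 6633 CPM and KO vehicle members at 1010 to 1723 CPM, while microglia lie at 1086 to 1383 CPM in WT vehicle and 3617 to 6887 CPM in WT DMXAA.

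The DNA element of the interferon response was sought in the 250 bases before the start sites of these genes (GRCm38.p6, RefSeq annotation, either strand). GAAANNGAAA occurred in 936 of 27025 genes with a start site (3.46%), in 34 of the 68 interferon genes that matched by symbol (50%), in 3 of 11 MHC class I genes and in 0 of 4 MHC class II genes. The 80 bases next to the start site are printed for 5 interferon genes of the results below that hold a match there, 5′ to 3′ on the strand of the gene, with the matching bases in capitals. They are shown because 4 genes of the Ifi200 cluster on chromosome 1 share the same 10 letters, GAAATCGAAA, and Ddx60 holds 2 copies of another form. Of these, Mndal, Ifi203 and Ddx60 passed the test between genotypes given below, and Ifi207 and Ifi213 did not. Ifi211 of the same cluster also holds a match to GAAANNGAAA in its 250 bases and is not printed, since it had too few counts for the fit. Ifi204, which passed, was not matched to a promoter.
Ifi213, chr1:173599273-173599352, minus strand: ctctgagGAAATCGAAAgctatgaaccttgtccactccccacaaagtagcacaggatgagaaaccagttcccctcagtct
Ifi207, chr1:173741810-173741889, minus strand: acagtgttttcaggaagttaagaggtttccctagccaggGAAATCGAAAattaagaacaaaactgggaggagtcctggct
Mndal, chr1:173880188-173880267, minus strand: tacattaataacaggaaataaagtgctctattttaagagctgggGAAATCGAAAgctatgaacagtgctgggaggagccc
Ifi203, chr1:173942493-173942572, minus strand: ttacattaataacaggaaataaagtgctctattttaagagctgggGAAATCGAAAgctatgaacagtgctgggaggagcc
Ddx60, chr8:61928007-61928086, plus strand: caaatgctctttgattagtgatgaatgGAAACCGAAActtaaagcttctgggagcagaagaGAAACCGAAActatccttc
The match begins 73 bases before the start in Ifi213, 41 in Ifi207, 36 in Mndal, 35 in Ifi203, and 53 and 19 in Ddx60. The starts are those of RefSeq, and those of Mndal and Ifi203 lie inside the gene spans that the files' annotation gives, so that they are not the outermost starts there. The windows of Mndal and Ifi203 hold nearly the same letters. The same window of Oasl2, Sp100 and Rnf213 held no such letters. A match describes the letters and is not evidence of binding.

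Between genotypes in vehicle-treated mice, antiviral genes were lower in KO border macrophages and no interferon gene was higher. Sp100 (a nuclear body protein) fell to a few UMIs, Oasl2 and Oas2 (the 2′-5′ oligoadenylate synthetase family) were not detected at all, and 3 genes of the DNA-binding Ifi200 family and the RNA sensor Ddx60 were lower. Apoe and the lysozyme gene Lyz2 were lower as well. In edgeR's quasi-likelihood test on summed counts, 204 of 3322 genes (6.14%) passed an adjusted p of 0.05, of which 34 (1.02%) were lower in KO. For the fit, the 2 smallest libraries or sums of a group were added together until each held at least 20 members. This left 10 units, 2 in each WT group and 3 in each KO group, and pooled WT vehicle library 1 and WT DMXAA library 3, of 28 and 25 members, with a smaller one. Of the 29 interferon genes tested, 10 were lower and 0 higher, with a median log2 fold change of -1.90 against -0.05 over all genes. A gene could pass the filter of the fit through the WT units alone, as Oasl2 did, so that these counts do not weigh both directions equally. On macrophage genes alone, 16 of 1033 (1.55%) passed, 14 of them lower (1.36%), and of 22 interferon genes 6 were lower (Sp100, Oasl2, Ifi204, Ddx60, Rnf213 and Mndal), with a median of -1.84 against 0.02.

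Sp100 (ENSMUSG00000026222, chr1:85649988-85709998) had 11, 8, 6 and 8 UMIs in WT vehicle and 1, 1, 1 and 0 in KO vehicle, without overlap. Its level was 163 ± 51.4 CPM and 14.1 ± 10.1 CPM (SD, n = 4), a ratio of summed levels of 11.96 with an exact 95% counting interval of 3.75 to 61.0. The log2 fold change was -3.36 ± 0.66 (SE) with edgeR adjusted p = 0.0200, and -3.01 ± 0.68 with adjusted p = 0.0192 on macrophage genes. The counting interval covers counting error only, and the fit the spread between the units.

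Oasl2 (ENSMUSG00000029561, chr5:114896936-114912234) had 5, 4, 10 and 6 UMIs in WT vehicle and 0 in all 8 KO libraries. Against the 3 counts that a group total of 0 allows, its level was at least 9.06-fold higher in WT vehicle (edgeR adjusted p = 0.0344). Oas2 (ENSMUSG00000032690, chr5:120730333-120749853) had 7, 4, 2 and 6 UMIs in WT vehicle and 0 in KO vehicle, at least 6.89-fold higher (adjusted p = 0.0386). Both genes were therefore present at a low count in every WT vehicle library and in none of the KO vehicle libraries. Slfn5, an interferon-induced growth regulator of the schlafen family, had 7, 1, 4 and 2 UMIs against 0 and did not pass (adjusted p = 0.0588).

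The Ifi200 family, whose proteins bind DNA and which lies in 1 cluster on chromosome 1, was lower in KO at 3 members that passed. Ifi204 (ENSMUSG00000073489, chr1:173747293-173766943) had 17, 7, 11 and 8 UMIs in WT vehicle and 0, 3, 1 and 0 in KO vehicle, with a log2 fold change of -3.36 ± 0.73 (edgeR adjusted p = 0.0236). Mndal (ENSMUSG00000090272, chr1:173849126-173942491) had 20, 8, 15 and 9 against 1, 1, 3 and 6 UMIs, at -2.21 ± 0.50 (adjusted p = 0.0265). Ifi203 (ENSMUSG00000039997, chr1:173920407-173942672) had 20, 10, 24 and 7 against 0, 4, 6 and 8 UMIs, at -1.75 ± 0.44 (adjusted p = 0.0366, and 0.0717 on macrophage genes). Ifi204 and Mndal did not overlap between the groups in UMIs, and Ifi203 did not overlap in CPM. Ifi207 (ENSMUSG00000073490, chr1:173723427-173741747) had 11, 9, 14 and 12 UMIs in WT vehicle and 5, 0, 5 and 4 in KO vehicle and did not pass (log2 -1.72 ± 0.50, adjusted p = 0.0576). Ifi213 (ENSMUSG00000073491, chr1:173566283-173599274) had 3, 4, 8 and 5 against 0, 0, 0 and 1 UMIs and did not pass either (adjusted p = 0.0512). Mndal and Ifi203 overlap on the same strand and the family is made of close copies, so that their counts may share reads.

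Ddx60 (ENSMUSG00000037921, chr8:61928087-62038244), a helicase that aids detection of viral RNA, had 21, 17, 17 and 11 UMIs in WT vehicle and 1, 2, 0 and 7 in KO vehicle, with a log2 fold change of -2.71 ± 0.66 (edgeR adjusted p = 0.0344). Rnf213 (ENSMUSG00000070327, chr11:119393100-119487418), a large interferon-induced ubiquitin ligase, had 9, 8, 16 and 15 against 2, 0, 2 and 2 UMIs, at -2.96 ± 0.64 (adjusted p = 0.0236). Both were lower in every KO vehicle library than in any WT vehicle library. Parp14, an ADP-ribosyltransferase (-2.20 ± 0.61, adjusted p = 0.0490), and Trim30d (-2.92, adjusted p = 0.0366) completed the 10. Stat2, a transcription factor of the pathway, did not pass, at 91.7 ± 31.1 CPM in WT vehicle and 23.4 ± 20.7 CPM in KO vehicle (SD, n = 4, adjusted p = 0.0884).

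**Figure D5:**
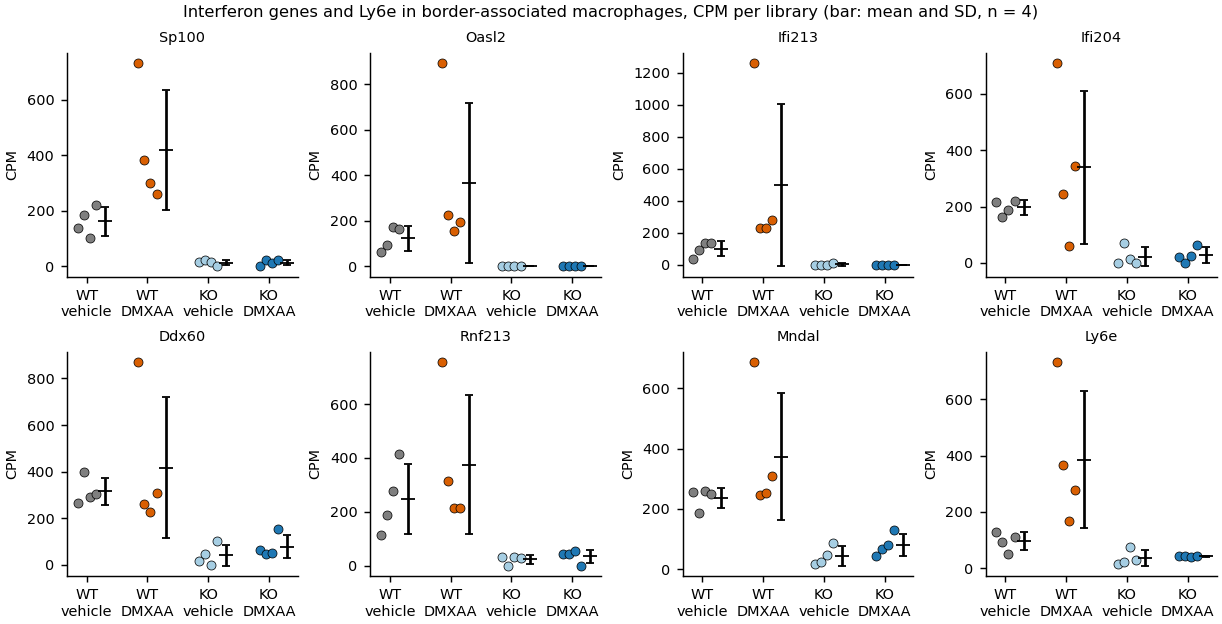
CPM per library of 7 genes of the interferon list and of Ly6e in the members of the 4 groups, with the group mean and SD (n = 4). Oasl2 was at 0 in all KO libraries and Sp100 lay at 0 to 24.1 CPM in KO vehicle against 103 to 220 CPM in WT vehicle.

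Without any model, 22 of 45 interferon genes with at least 20 UMIs (48.9%) lay higher in every WT vehicle library than in every KO vehicle library, and 0 of 45 the other way. Over all 7220 genes the share was 6.54%. The filter of 20 UMIs counted all groups together, here and in such counts below. A gene held almost only by WT members, such as Oasl2 with 0 UMIs in KO, could thus only lie higher in WT. On the macrophage gene scale it was 16 of 43 interferon genes (37.2%) against 4.17% of 2420 genes. Several other lists were also above the share of all genes on all UMIs, among them 7 of 16 border macrophage markers outside the rule (43.8%), 3 of 8 MHC class I genes (37.5%) and 3 of 10 complement and Fc receptor genes (30%). On the macrophage gene scale these were 1 of 16 (6.25%), 0 of 8 and 2 of 10 (20%). Lipid and iron handling had 2 of 7 (28.6%), and 2 of 6 (33.3%) on the macrophage gene scale. Chemokines and growth factors (2 of 6), NF-kB and inflammatory genes (2 of 7) and macrophage transcription factors (3 of 11) each had 0 there.

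The number of calls varied with the nuclei and libraries used, which also set the number of units. It was 0 (7 units) when 3 of the 5 rule genes were required and 1 (8 units) without nuclei holding any marker of another cell type. It was 0 (9 units) without WT vehicle library 1, when the other WT vehicle libraries formed 1 unit, 105 (10 units) without WT vehicle library 2, and 16, 95 and 25 (9 units each) without KO vehicle library 1, 2 and 3. The part of the units and that of the nuclei or library left out cannot be told apart in these counts. The direction of the interferon genes was kept: over all alternatives Sp100 lay between -4.22 and -2.66, Ifi204 between -4.90 and -2.70, Rnf213 between -3.33 and -1.81, and Mndal between -2.81 and -1.83.

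Outside the interferon list, Apoe had 547, 446, 503 and 372 UMIs in WT vehicle and 98, 113, 217 and 283 in KO vehicle. Its level was 9071 ± 1612 CPM against 2957 ± 1046 CPM (SD, n = 4), without overlap, a log2 fold change of -1.37 ± 0.33 (edgeR adjusted p = 0.0344), and -1.03 ± 0.21 (adjusted p = 0.0128) on macrophage genes. Lyz2 had 59, 45, 21 and 22 UMIs against 4, 8, 15 and 14, at -1.82 ± 0.44 (adjusted p = 0.0344; -1.47 ± 0.34, 0.0192 on macrophage genes). Ftl1, the ferritin light chain, was also lower (-2.64, adjusted p = 0.0265) but not on macrophage genes (-2.28, adjusted p = 0.0655). Of 5 tested genes of lipid and iron handling, 2 were thus lower, against 1.02% of all genes, and 1 on macrophage genes, against 1.36%. Vsig4, a complement receptor of resident macrophages, had 8, 8, 5 and 10 against 1, 0, 0 and 2 UMIs, a ratio of 11.2 with an exact counting interval of 3.51 to 57.4 (adjusted p = 0.0463). Ptgds was also lower, and 727 of its UMIs lay in WT vehicle library 3.

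The 170 genes that were higher in KO vehicle were led by genes of neurons, which moved with the neuronal RNA given above. Shisa6, an AMPA receptor auxiliary subunit, had 3, 0, 3 and 0 UMIs in WT vehicle and 89, 17, 27 and 41 in KO vehicle (log2 4.68 ± 0.64, edgeR adjusted p = 0.00513). The other genes at the head of this set were Ndst4 (0 UMIs in WT vehicle), Fstl4 (4.61), Galnt16 (4.43), Cacng8 (4.25) and Bcl11b (4.19, in log2). Of the excitatory neuron list 3 of 6 genes passed, all higher, beside 5.12% of all genes. On macrophage genes alone 2 genes were higher, Maml3 (1.18) and Retreg1 (1.43).

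In WT mice, the summed interferon genes were highest in 1 DMXAA library, and their difference from vehicle was larger on the macrophage gene scale. The members of WT DMXAA held 21271, 7454, 5403 and 7465 CPM of the interferon genes against 4815 to 6633 CPM in WT vehicle. Library 1 lay far above the vehicle range, libraries 2 and 4 just above it and library 3 within it. On the macrophage gene scale the values were 41280, 20353, 13991 and 21712 CPM against 9283 to 15187 CPM in WT vehicle, so that libraries 1, 2 and 4 lay well above the vehicle range and library 3 within it. The ratio of means was 1.84, and 1.20 without library 1 (1.96 and 1.51 on the macrophage gene scale). The high library was not made by 1 nucleus: its median of the 15 members was 55 interferon UMIs, against 17 to 23 in the other WT DMXAA libraries and 8 to 14 in WT vehicle, and its top nucleus held 12.4% of its 930 interferon UMIs. In edgeR's quasi-likelihood test 0 of 3322 genes (0%) passed an adjusted p of 0.05, with 250 genes at an unadjusted p under 0.05, and DESeq2 called 4. The genes with the smallest p, none of which passed, were Tafa1 (log2 3.41 ± 0.58, adjusted p = 0.0845), Dgkb (3.02, 0.0845), Dcc, Luzp2, Hpgd (-1.64 ± 0.35, 0.228) and Gm26871, and the first of them are genes of neurons. The 29 interferon genes had a median log2 fold change of 0.79, against 0.07 over all genes, and none passed.

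On macrophage genes alone, 7 of 1033 (0.678%) passed, and 1 of these, Ifi213, was among the 22 genes of the interferon list tested there. It had 3, 4, 8 and 5 UMIs in WT vehicle and 55, 13, 19 and 17 in WT DMXAA, without overlap, a log2 fold change of 2.42 ± 0.50 (edgeR adjusted p = 0.0268). With 1 library left out, the log2 fold change of Ifi213 over all UMIs lay between 1.44 and 2.67. Ly6e, a GPI-anchored membrane protein outside that list, had 10, 4, 3 and 4 against 32, 21, 14 and 17 UMIs, at 2.06 ± 0.47 (adjusted p = 0.0273). Tmcc3 (1.17 ± 0.23) and the phosphodiesterase gene Pde7b (1.37 ± 0.31) were also higher, with 31, 28, 24 and 15 UMIs of Pde7b in WT vehicle and 76, 58, 84 and 29 in WT DMXAA. Hpgd, which inactivates prostaglandins, was lower, with 48, 24, 19 and 9 against 1, 10, 12 and 11 UMIs (-1.55 ± 0.34). Htr2c and Ptgds were lower too, and both are choroid plexus or meningeal RNA carried by the few nuclei named above. Over all UMIs none of these genes passed.

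The other interferon genes did not pass. Sp100 had 11, 8, 6 and 8 UMIs in vehicle and 32, 22, 25 and 16 after DMXAA, without overlap, and did not pass (log2 1.52 ± 0.44, edgeR adjusted p = 0.377, and 0.0818 on macrophage genes), and Oasl2 had 39, 13, 13 and 12 UMIs in WT DMXAA (1.64 ± 0.61, adjusted p = 0.591). Ifi204 was at 197 ± 26.4 CPM in vehicle and 339 ± 273 CPM after DMXAA (SD, n = 4), with library 3 at 5 UMIs. Of the 45 interferon genes with at least 20 UMIs, 4 (Irf9, Trim25, Sp100 and Ifi213; 8.89%) lay higher in every WT DMXAA library than in every WT vehicle library, against 1.4% of all genes. On the macrophage gene scale it was 6 of 43, against 2.19%.

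Of all genes with at least 20 UMIs, 157 of 7220 (2.17%) lay lower in every WT DMXAA library than in every WT vehicle library, and 40 of 2420 (1.65%) on the macrophage gene scale. The genes of the lists that did so on both scales were Igf1, Mef2c, Ednrb, Csf1r, Fcrls, Cd209f and Adgre1, and none of them passed the test. Igf1, a growth factor, had 24, 20, 15 and 16 UMIs in vehicle and 6, 8, 11 and 10 after DMXAA, or 368 ± 102 and 143 ± 13.9 CPM (SD, n = 4; log2 -1.17 ± 0.40, edgeR adjusted p = 0.543). Mef2c was at 1802 ± 384 CPM in vehicle and 965 ± 296 CPM after DMXAA (log2 -0.83 ± 0.34, adjusted p = 0.593). Ednrb, the endothelin receptor B, had 14, 8, 7 and 6 UMIs against 1, 2, 3 and 2 (log2 -2.16 ± 0.54, adjusted p = 0.337). Csf1r was at 709 ± 130 and 368 ± 44.3 CPM (adjusted p = 0.612), and Fcrls at 453 ± 139 and 165 ± 69.9 CPM (adjusted p = 0.591). In KO mice Mef2c was at 1013 ± 275 CPM after vehicle and 1391 ± 455 CPM after DMXAA.

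In KO mice no gene passed the edgeR test after DMXAA (0 of 3322, 0%), with 200 at an unadjusted p under 0.05 and 2 called by DESeq2. Those with the smallest p were Gabrg3 (log2 -2.83, adjusted p = 0.0768), Galntl6 (-3.33, 0.0799), Tafa1, St7, Shisa6 and Adgrb3, again mostly genes of neurons. The interferon genes summed to 1565, 1878, 1701 and 2915 CPM after DMXAA against 1010, 1444, 1364 and 1723 CPM after vehicle, which overlapped, with a ratio of means of 1.45 (1.21 on the macrophage gene scale). The highest KO DMXAA library stayed below the lowest WT vehicle library. Ifi207 had 4, 9, 13 and 7 UMIs after DMXAA and 5, 0, 5 and 4 after vehicle (log2 1.26 ± 0.50, adjusted p = 0.781). In CPM, 3 of 45 interferon genes (Ifi207, Trim25 and Trim30d) lay higher in every KO DMXAA library than in every KO vehicle library, beside 1.93% of all genes, and 0 of 43 did on the macrophage gene scale, beside 1.36%. Ifi203 went the other way, with 2, 1, 1 and 1 UMIs against 0, 4, 6 and 8 (-1.78 ± 0.63, adjusted p = 0.755). Oasl2 remained at 0 in all 4 libraries.

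The test of whether the response to DMXAA differed between genotypes passed for 12 of 3322 genes (0.361%), all with a higher value in WT, and the 6 of largest size were genes of neurons. They were Tafa1 (log2 difference 5.35, edgeR adjusted p = 0.0166), Galntl6 (5.22, 0.0344), Shisa6 (4.71, 0.0375), Dgkb (4.32, 0.0226), Gabrg3 (4.26, 0.0375) and Cntnap2 (4.22, 0.0445). Tafa1 had 8, 3, 6 and 2 UMIs in WT vehicle, 0, 80, 46 and 93 in WT DMXAA, 27, 27, 37 and 98 in KO vehicle and 3, 16, 26 and 5 in KO DMXAA. None of the 29 interferon genes passed this test. Sp100 differed by 1.46 ± 1.17 (adjusted p = 0.786). On macrophage genes alone 4 of 1033 passed (0.387%). Pde7b was higher in WT (2.24 ± 0.45, adjusted p = 0.0143), and 3 were lower (0.29%), the choroid plexus genes Htr2c and Enpp2 and the RNA Otx2os1, of which Htr2c and Enpp2 lay mostly in the few nuclei named above.

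Set beside microglia, the interferon genes of border macrophages stood at a higher level after vehicle and differed by a smaller factor after DMXAA. Microglial interferon genes summed to 1086 to 1383 CPM in WT vehicle and 6887, 3617, 3663 and 4634 CPM in WT DMXAA, without overlap, a ratio of 3.82 (3.23 without library 1), compared with 1.84 (1.20) in the members. In KO mice the microglial ratio was 1.04. The difference between the cell types in their response in WT, measured as a fold change, passed for 66 of 12666 genes (0.521%), 20 with a smaller response in border macrophages (0.158%). Of 74 interferon genes tested, 10 had a smaller fold change and 0 a larger one, with a median log2 difference of -1.29 against 0.01 over all genes. The fit of the members alone tested 29 interferon genes. Here a gene could pass the filter through DMXAA microglia alone, where these genes were high, so that these counts and this median do not weigh both directions equally. A smaller fold change is not a smaller rise in CPM. By the mean CPM given below, the rise in border macrophages was larger than in microglia for Oasl2 and Sp100 and smaller for Ifi204. These means include WT DMXAA library 1, the highest for interferon genes in both cell types, and the order without it was not tested. None of these genes passed the test of DMXAA in WT border macrophages. On macrophage genes alone 27 of 3581 passed (0.754%), 23 of them smaller (0.642%), including 11 of 70 interferon genes. The 46 genes with a larger response in border macrophages were led by D7Ertd443e, Mog, Grin3a, Ephb1, Gm37679 and Luzp2, which are genes of oligodendrocytes, neurons and glia or have no named function, and Mog was used in choosing the nuclei.

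The interferon genes with the largest differences were ones that vehicle-treated microglia hardly held. Ifi207 had 0 UMIs in each WT vehicle library of microglia and 167, 71, 27 and 67 in WT DMXAA, while the far fewer border macrophages held 11, 9, 14 and 12 UMIs in vehicle and 33, 20, 14 and 14 after DMXAA. In vehicle its level in border macrophages was at least 341-fold that in microglia, whose 0 counts were set to 3, and no fitted size is given for the difference in response (edgeR adjusted p = 3.62e-16). Ifi204 was at 4.52 CPM in WT vehicle microglia and 161 CPM after DMXAA, against 197 and 339 CPM in border macrophages, a log2 difference of -4.61 ± 0.55 (adjusted p = 1.22e-13). Oasl2 was at 2.54 and 133 CPM in microglia against 124 and 368 CPM (adjusted p = 3.09e-08), and Sp100 at 9.94 and 175 CPM against 163 and 419 CPM, a difference of -2.70 ± 0.52 (adjusted p = 0.000154). Ifi213 held 0, 1, 0 and 0 UMIs in WT vehicle microglia and 260, 133, 51 and 78 after DMXAA (adjusted p = 5.03e-08). Oas2 held 0, 1, 0 and 1 against 147, 46, 41 and 71 (adjusted p = 1.31e-06). Ifi204, Ifi207, Ifi213 and Oas2 passed under each of the 16 alternatives in which they were fitted.

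Mndal and Ifi203, also of the Ifi200 family, were at a few CPM in microglia in both treatments. Mndal was at 2.84 CPM in WT vehicle microglia and 6.96 CPM after DMXAA, against 237 ± 33.5 and 373 ± 211 CPM in border macrophages (SD, n = 4), and Ifi203 at 1.39 and 5.04 CPM against 274 ± 96.5 and 419 ± 204 CPM. The differences in response did not pass (adjusted p = 1 for Mndal and 0.963 for Ifi203). Ly6e was at 85.5 and 186 CPM in microglia and at 95.6 and 386 CPM in border macrophages (difference 0.74 ± 0.51, adjusted p = 0.994).

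The genotype difference in vehicle-treated mice was also set against that in microglia, a comparison added after the data had been seen. It passed for 334 of 9901 genes (3.37%), 58 of them with a lower value in border macrophages (0.586%), and of 45 interferon genes 2 passed, Rnf213 (log2 difference -3.05 ± 0.67, edgeR adjusted p = 0.00044) and Ddx60 (-2.23 ± 0.65, adjusted p = 0.0225). The others at the head of the lower set were Mecom, Spag16, Flt1, Clic6, Col8a1 and Sulf1, genes of endothelial and border tissue cells, whose endothelial list summed to 0 to 1679 CPM over the WT vehicle libraries of the members and to 0 to 15.3 CPM in KO vehicle. The median of the 45 was -1.49 against -0.08 over all genes. In this fit a gene could pass the filter through WT members alone, so that this median does not weigh both directions equally. Of the 276 genes with a higher value in border macrophages, 5 were among the 6 excitatory neuron genes. On macrophage genes alone 15 of 2847 passed (0.527%), 2 higher and 13 lower (0.457%), so that the split turned. There Rnf213 passed (-2.68, adjusted p = 0.00714) and Ddx60 did not (adjusted p = 0.296). Cd74 passed in the other direction (3.36 ± 0.82, adjusted p = 0.0027): it was at 219 ± 143 CPM in WT vehicle border macrophages and 416 ± 199 CPM in KO vehicle (SD, n = 4), and at 5.39 and 0.905 CPM in microglia. The KO vehicle microglia held 709101 to 1034543 UMIs in a library, so that their Cd74 was near the floor. Its UMIs in the members overlapped between genotypes, as given above, and the size of this difference is uncertain.

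No tested gene of the lists of scavenger receptors, complement and Fc receptors, and MHC class I passed between genotypes (Vsig4, described above, is in none of these lists), but these lists were short and 1.02% of all genes were called lower. The scavenger receptors summed to 5705, 7808, 5128 and 7403 CPM in WT vehicle and 2593, 5296, 4108 and 4935 CPM in KO vehicle, 0.650 times by mean and 0.919 times on the macrophage gene scale, and 0 of 7 tested genes passed. Complement and Fc receptor genes stood at 0.477 times (0.683), with 0 of 9 passing. Of these C1qa was at 734 ± 136 and 335 ± 118 CPM and C1qb at 633 ± 147 and 267 ± 75.4 CPM (SD, n = 4), neither overlapping between the groups on either scale. The MHC class I genes stood at 0.339 times (0.483), with 739, 912, 705 and 1046 CPM in WT vehicle against 202, 313, 230 and 409 CPM in KO vehicle, without overlap, and with 0 of 3 tested genes passing. After DMXAA in WT the MHC class I sum was 1.68 times that of vehicle, and H2-K1, a classical class I heavy chain, had 13, 7, 6 and 7 UMIs in vehicle and 26, 27, 16 and 13 after DMXAA (log2 1.35 ± 0.58, adjusted p = 0.612).

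Of 6 tested genes of cGAS, STING and the receptor chains 0 passed between genotypes, beside 6.14% of all genes, with a median log2 fold change of -0.14 against -0.05 over all genes. Ifnar2, the other receptor chain, was at 229 ± 77.6 CPM in WT vehicle and 180 ± 141 CPM in KO vehicle, and Tbk1, the kinase downstream of STING, at 191 ± 72.9 and 139 ± 71.4 CPM (SD, n = 4). The macrophage transcription factors stood at 0.848 times in KO vehicle, with 0 of 8 passing. The NF-kB and inflammatory genes stood at 0.608 times between genotypes (0.888 on the macrophage gene scale) and at 0.567 times after DMXAA in WT (0.645), with 0 of 3 tested genes passing in either.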

How the data were processed

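Nuclei of 16 hippocampi, 1 library per mouse, were sequenced with 10x Chromium 3′ chemistry. The authors deposited UMI counts per gene and barcode (32285 genes), aligned with Cell Ranger to the mm10 genome including introns. The file headers name version 6.1.2 and the submitters' processing notes 3.1.0, with Seurat 3.0. Ambient RNA removal is not given in the sources used here, and reads of copied or overlapping genes may be assigned unevenly.

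From these counts, nuclei with 200 to 4000 genes and at most 5% mitochondrial UMIs were kept (5510 to 10259 per library), and the members were selected as the report states. UMIs were summed per library, the 2 smallest of a group were added together until each sum held at least 20 members, and the sums were tested with edgeR's quasi-likelihood test (TMM, filterByExpr, Benjamini-Hochberg) in 1 model over the 4 groups. Border macrophages and microglia of the same units were compared in a model with the unit as a block and cell type by group. A call was an adjusted p under 0.05 with an absolute log2 fold change over 0.1. Genes in the text were those of largest size among the calls, or of smallest p where under 5 passed, the most abundant of each list, the rule genes, Ifnar1 and Mef2c. The members and the 29 gene lists were chosen with earlier results of these data known. Doublets were marked with scrublet in scanpy 1.11.5 and kept. The p-values of the fits measure the spread between units. Each WT group had 2 units, each the sum of 2 libraries, so that these fits did not measure the spread between single WT mice. The scripts were tested on simulated data. Python 3.11.15, scipy 1.17.1, R 4.3.3, edgeR 4.0.16 and DESeq2 were used. Alternatives were DESeq2, no TMM, no filter, every library by itself, other marker thresholds, no doublets, macrophage genes only, and each library left out. Mx1 and Mx2 were not analysed here, and Sting1 was analysed under its other name, Tmem173. A few single genes are not reported here.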

Additional observations from a re-analysis of the deposited data

Results flagged for a closer look

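3 library values lay further from the other 3 of their group than the 95% critical value for the gap allows, among 40 groups of 4 libraries tested over 10 measures, where chance flags about 1 in 20. The share of border macrophages was 0.343% in WT vehicle library 1, above the other libraries of that group. The summed interferon genes reached 21271 CPM in WT DMXAA library 1. The choroid plexus genes summed to 3935 CPM in KO DMXAA library 1, and 1 of its nuclei held 255 UMIs of Htr2c, Ttr and Enpp2.

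The response to DMXAA differed between WT and KO mice, by the interaction term of edgeR, for 6 genes named in the report: Tafa1 (log2 difference 5.35), Galntl6 (5.22), Shisa6 (4.71), Dgkb (4.32), Gabrg3 (4.26) and Cntnap2 (4.22). These are genes of neurons, and the summed excitatory neuron genes in the members moved in the same way, from a mean of 1041 CPM in WT vehicle to 2158 CPM in WT DMXAA and from 5878 to 3519 CPM in KO mice. Their part in the result was not tested.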

How the results depend on the processing

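The counts of called genes depended on the settings more than the direction of the interferon genes did. For DMXAA in WT (0 called), DESeq2 called 4, no filter on low counts 93, leaving out marked doublets 6 and macrophage genes only 7, and leaving out single libraries 0 to 47. For DMXAA in KO (0 called), DESeq2 called 2, no filter 31, no doublets 36, and single libraries left out 0 to 2. The interaction (12) gave 35 with DESeq2, 5 without TMM, 194 without filter, 0 with each library by itself, 0 with at least 3 rule genes, 0 without nuclei holding another type's marker, 128 without doublets and 4 on macrophage genes, and 0 to 71 with single libraries left out. KO against WT vehicle (204) gave 419 without filter, 0 with only libraries of 20 or more members, 0 with at least 3 rule genes, 1 without other types' markers and 16 on macrophage genes, and 0 (without WT vehicle library 1) to 434 (without KO DMXAA library 1). Without TMM its split was 146 higher and 59 lower in place of 170 and 34, and the median of all genes moved from -0.05 to -0.23.

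The WT response of border macrophages minus that of microglia (66, of which 46 larger and 20 smaller in border macrophages) gave 15 with DESeq2 (3 and 12), 16 with each library by itself (6 and 10), 7 with at least 3 rule genes (1 and 6) and 27 on macrophage genes (4 and 23), and 25 (without WT vehicle library 1) to 130 (without WT vehicle library 3). KO minus WT vehicle against microglia (334) gave 168 with DESeq2, 168 with each library by itself, 150 with libraries of 20 or more members, 6 with at least 3 rule genes, 52 without other types' markers and 15 on macrophage genes (2 higher and 13 lower, in place of 276 and 58), and 176 (without KO vehicle library 1) to 432 (without WT vehicle library 3). The difference in share in WT (-0.0187) was 0.00715 with at least 3 rule genes and -0.0299 to 0.0137 without single libraries. In KO (0.00219) it was 0.0310 with at least 3 rule genes, 0.0271 without other types' markers, -0.0299 without nuclei holding a microglial marker, -0.0124 without doublets, -6.93 per 1000 microglia, and -0.0160 to 0.0247 without single libraries.

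Of 878 values of single named genes under the alternatives, 652 stayed on their side of the threshold, 210 lost the call, 15 gained it and 1 changed sign: Ddx60 after DMXAA in WT was -0.15 without WT DMXAA library 1, in place of 0.46, and reached 0.59 without other single libraries. The cause was not tested. A fit without nuclei holding microglial markers could not be fitted, libraries of 20 or more members gave only the comparisons that had such libraries in each group, and where a group kept 1 unit it was assumed to vary like the others. No paired analysis was possible between groups because the replicate numbers only name the libraries, whereas border macrophages and microglia were compared within units. With 13 to 28 members per library and 1 UMI worth 11.98 to 27.5 CPM, genes under about 3 UMIs could not be compared.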
